A study of Mus musculus with 6 samples.

Results

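The genes of mitochondrial protein import and of the Chchd family were chosen by name: every gene whose symbol begins with Timm, Tomm or Chchd, together with Samm50, Immt, Mtx1, Mtx2, Pmpca and Pmpcb. The rule found 39 of the 21958 protein-coding genes of the count table, and 35 of them were among the 12255 genes with enough counts to be compared. The naming rule itself uses no measured value, although it was set with earlier results of these data known.

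The mRNA of these genes was compared in synaptoneurosomes, a preparation of brain tissue enriched in pinched-off synapses with both presynaptic and postsynaptic compartments. They were made from hippocampus and adjacent cortex of FVB mice aged 6 to 8 weeks, with tissue of several mice pooled in a preparation. One group of 3 libraries, NMDA polyribosomes, held RNA from the polyribosomal fractions of a sucrose gradient after a pulse of 50 µM NMDA and 10 µM glutamate for 30 s, addition of the NMDA receptor antagonist APV at 120 µM and 20 min of incubation. The other group of 3 libraries, unstim. Total, held total RNA of unstimulated synaptoneurosomes, which the methods describe as kept on ice with the elongation inhibitor cycloheximide. The groups differed in stimulation and in RNA fraction at once, so the effects of both cannot be told apart. P-values of single genes, without the block described below, measure the spread between 3 libraries a group, estimated partly from other genes.

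Nearly all mitochondrial proteins are encoded in the nucleus, made on cytosolic ribosomes and imported. The TOM complex of the outer membrane is the common entry gate. The TIM23 complex carries precursors with a cleavable presequence into the matrix, where the processing peptidase MPP removes it, while the small Tim chaperones lead carrier proteins to the TIM22 complex. The SAM complex inserts β-barrel proteins into the outer membrane, the MICOS complex holds the cristae junctions, and many Chchd proteins, small proteins with paired cysteine motifs, are trapped in the intermembrane space by the Chchd4 oxidation pathway.

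Totals ranged from 5294482 to 7361580 counts in the polyribosome libraries and from 1044955 to 3738022 in the total RNA libraries, the shallowest being total RNA replicate 3. Levels are given as CPM, counts scaled to the library size with TMM factors of edgeR, and a positive log2 fold change means a higher level on polyribosomes. Defining markers of neurons and synapses were all detected, with summed levels of 9066 to 12167 CPM on polyribosomes and 8235 to 10065 CPM in total RNA. Of these 9 markers 6 had a positive log2 fold change, the median was 0.07 and 0 were called. Glial and vascular markers were detected too and none was at 0. All 8 astrocyte, 7 oligodendrocyte, 7 microglia and 5 endothelial markers had a positive log2 fold change, with list medians of 0.53, 0.43, 0.36 and 0.44, and 1 of them, an oligodendrocyte marker, passed the threshold. The summed astrocyte markers lay between 40603 and 42842 CPM on polyribosomes and between 32094 and 36640 CPM in total RNA. The part of these cells in the differences below was not tested, and in bulk RNA the share of a gene's counts that came from them cannot be told.

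Chchd10 and Chchd2, both small proteins of the intermembrane space, rose on polyribosomes by 2.85-fold and 1.81-fold. No other import or Chchd gene passed an adjusted p of 0.01 (edgeR's quasi-likelihood test, Benjamini-Hochberg adjustment over 12255 genes), so 2 of 35 were called higher and 0 lower. Of all genes tested 0.71% were called higher and 2.36% lower. DESeq2 also called 2 members higher and 0 lower, with 268 and 402 of all genes called. At an unadjusted p under 0.05 there were 7 members higher and 4 lower, which is 20% and 11.4% of the members against 15.4% and 17.1% of all genes.

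The median difference of the whole gene set was smaller than the spread of that median between preparations (SD 0.14). Of the 35 members 22 (62.9%) had a positive log2 fold change, against 50.1% of all genes, and their median was 0.10 against 0.00. In the 3 pairs of same-numbered libraries, taken as preparations, the median of the members was 0.02, -0.03 and 0.24. When libraries were scaled by their totals alone, the median of all genes moved to -0.11 and that of the members to -0.01, with 16 positive members. The share of all counts that fell on the members was 0.113% ± 0.0032 in the polyribosome libraries and 0.110% ± 0.014 in the total RNA libraries (SD, n = 3 each).

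Members differed in direction, and their spread was no wider than that of all genes. The lower and upper quartiles of their log2 fold changes were -0.20 and 0.37, against -0.34 and 0.32. The levels of the groups did not overlap for 7 members that were higher on polyribosomes, Chchd10, Chchd2, Timm50, Timm13, Timm17b, Tomm7 and Samm50, and for 4 that were lower, Mtx2, Chchd7, Timm9 and Chchd4. These are 20% and 11.4% of the members, where 17.4% and 18.9% of all genes did not overlap. In all 3 preparations 9 members (25.7%) were higher and 8 (22.9%) lower, against 30.2% and 30.6% of all genes.

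The polyribosome and total RNA libraries of a number were taken to come from the same preparation, which the labels do not state. P-values of a fit with the preparation as a block measure the spread of the difference between the 3 pairs, estimated partly from other genes. A small p there does not show that the pairs of a gene agreed. This fit called more members than the fit without the block. It called 7 higher, adding Timm50, Timm13, Timm17b, Tomm40 and Tomm7 to Chchd10 and Chchd2, and 2 lower, Mtx2 and Tomm70a. The same fit called 11.8% of all genes higher and 13.2% lower, so 20% of the members were called in the first direction and 5.71% in the second. With each preparation left out of the blocked fit in turn, Chchd10, Chchd2 and Timm50 passed in all 3 fits. Mtx2 and Timm13 missed the threshold without preparation 1 (-0.65 and 0.56), Tomm40 without preparation 1 or 2 (0.52 and 0.55), and Tomm70a likewise (-0.57 and -0.47). Timm17b (0.65 to 0.79) and Tomm7 (0.41 to 0.69) missed it in each of these fits.

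**Figure D1:**
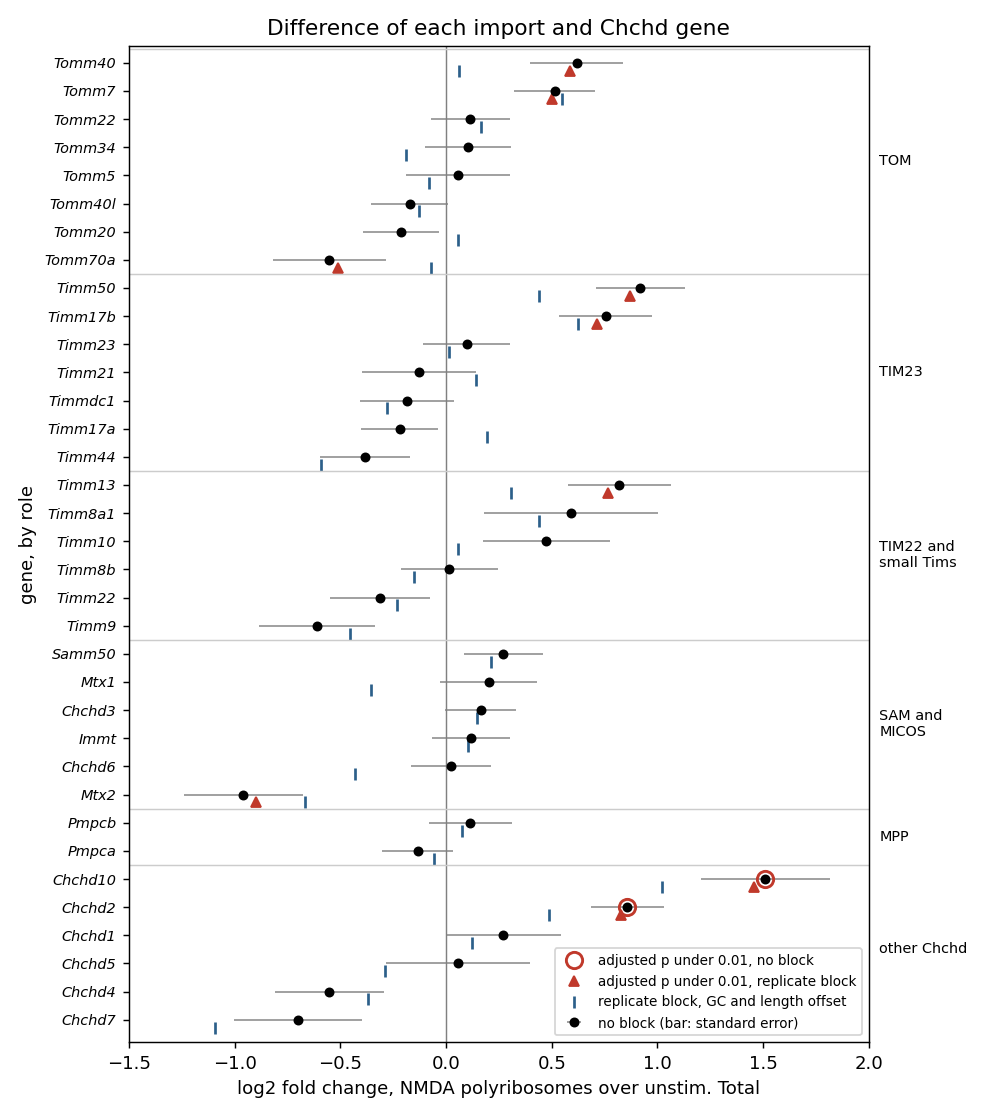
Log2 fold change of the 35 members tested (NMDA polyribosomes over unstim. Total), grouped by role, with black points and standard error bars from the fit without a block. Circles mark Chchd10 and Chchd2, red triangles the 9 members past the threshold in the fit with the replicate block, and blue ticks the values of that fit with GC content and transcript length corrected for, where Tomm40 falls from 0.58 to 0.06.

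GC content and length of the transcripts moved with the differences. Over the 35 members the log2 fold change had a Spearman correlation of 0.50 with the GC content and of -0.44 with the length of the longest coding transcript. Over 12212 genes these were 0.54 and -0.36, and genes are not independent replicates. The members' transcripts were short, with a median of 1615 bases against 3416.5 bases, and their median GC content was 49.7% against 50.3%. With both properties corrected for in the blocked fit, 3 members were called higher, Chchd10 (1.02), Chchd2 (0.49) and Tomm7 (0.55), and 2 lower, Chchd7 (-1.09) and Timm44 (-0.59). That fit called 8.94% of all genes higher and 7.13% lower. Without the block, the correction left 0 of 35 members called in either direction, with 0.228% and 0.726% of all genes called. Chchd10 was then at 1.05 (adjusted p = 0.0215, edgeR) and Chchd2 at 0.49 (adjusted p = 0.0573, edgeR). At an unadjusted p under 0.05, 5 members were higher and 4 lower in that fit, where 13.2% and 12.2% of all genes were.

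**Figure D2:**
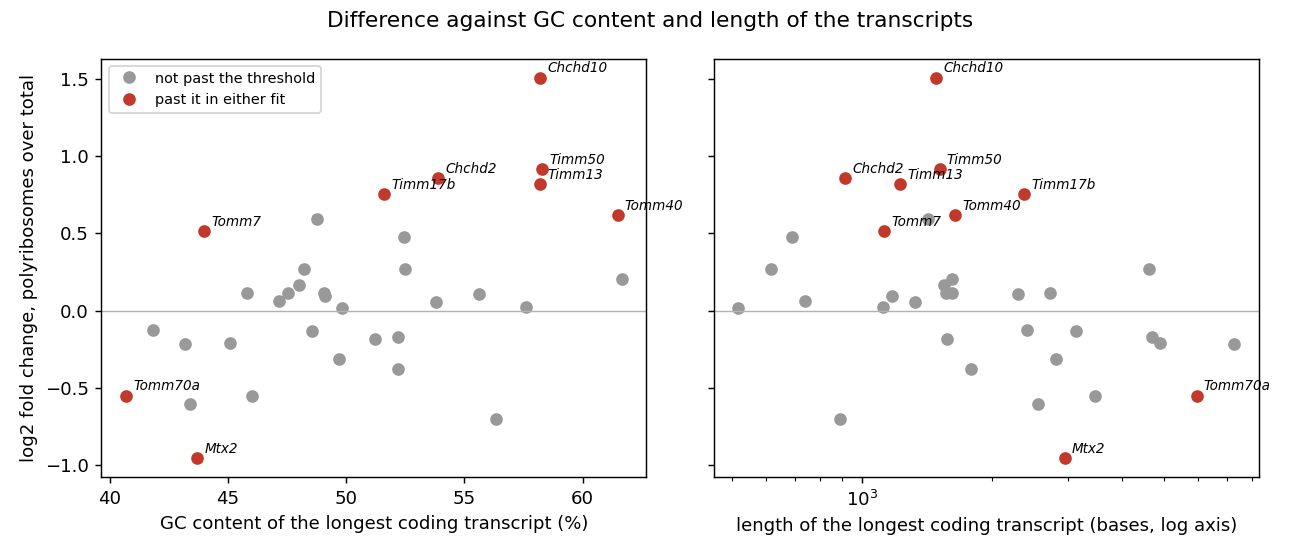
Log2 fold change of the 35 members against the GC content (left, percent) and the length (right, bases, log axis) of the longest coding transcript, each point a gene. Members past the threshold with or without the block are red and named. Tomm70a and Mtx2, the lower ones, have 40.7% and 43.7% GC, and of the 7 higher ones only Tomm7, at 44.0%, lies below 50%.

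Promoter windows of the members were searched for letters they share. RefSeq windows (GRCm38.p6) of 250 bases before to 50 bases after the gene start were held for 34 of the 39 members, with Tomm7, Tomm40l, Timm21, Chchd2 and Chchd7 missing. For 26 of the 34 the end of the window was found near the start of the longest coding transcript. The other windows may describe another start. The letters CCGGAAG, an ETS-type core, were searched on both strands and stood in 16 of 34 member windows (47.1%), against 8.86% of all 32851 windows and 15.9% of the windows of genes tested. An NRF1-type palindrome, the other motif searched, stood in 4 of 34 member windows (11.8%), against 9.47% of the windows of genes tested. Of the 14 tested members with CCGGAAG in the window 10 had a positive log2 fold change (median 0.10), and of the 16 without it 10 did (median 0.17). Of the 7 members called with the block that had a window, the lower ones Tomm70a and Mtx2 held CCGGAAG 2 times each, and the higher ones Tomm40, Timm17b, Timm50, Timm13 and Chchd10 held it 0 times. The window of Chchd10 lies upstream of the gene start in the count table and so describes another start. The bases before the start are printed for both genes that were lower and for one TOM and one TIM23 gene that were higher, 5′ to 3′ on the strand of the gene, with CCGGAAG or its reverse complement in capitals. In Mtx2 the other match lies past the start and is not shown.
Tomm70a (chr16:57121464-57121713, plus strand): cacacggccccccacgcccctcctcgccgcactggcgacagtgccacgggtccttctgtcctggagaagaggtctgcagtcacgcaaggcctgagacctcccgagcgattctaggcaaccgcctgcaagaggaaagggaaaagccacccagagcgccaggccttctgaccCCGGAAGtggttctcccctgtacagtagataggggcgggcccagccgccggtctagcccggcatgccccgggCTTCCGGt
Mtx2 (chr2:74825562-74825811, plus strand): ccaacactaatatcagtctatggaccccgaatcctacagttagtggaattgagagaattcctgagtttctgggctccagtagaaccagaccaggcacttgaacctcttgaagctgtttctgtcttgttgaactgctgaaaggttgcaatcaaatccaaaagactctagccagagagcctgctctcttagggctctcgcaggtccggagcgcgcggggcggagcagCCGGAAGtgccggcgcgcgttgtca
Tomm40 (chr7:19715430-19715679, minus strand): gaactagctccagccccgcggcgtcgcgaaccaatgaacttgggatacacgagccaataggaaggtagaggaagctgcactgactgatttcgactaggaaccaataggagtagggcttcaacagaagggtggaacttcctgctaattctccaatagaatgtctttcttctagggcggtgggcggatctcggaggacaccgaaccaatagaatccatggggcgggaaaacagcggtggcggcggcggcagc
Timm50 (chr7:28312047-28312296, minus strand): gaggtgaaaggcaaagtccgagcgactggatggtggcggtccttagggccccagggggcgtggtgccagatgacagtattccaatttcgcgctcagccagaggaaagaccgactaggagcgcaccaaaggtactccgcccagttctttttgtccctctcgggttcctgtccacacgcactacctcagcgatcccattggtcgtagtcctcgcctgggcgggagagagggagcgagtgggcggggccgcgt
Both capital runs of Tomm70a lie in the stretch shown and on opposite strands, and Tomm40 and Timm50 have no capitals. A match describes the letters and does not show that a factor binds.

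Among the 8 TOM genes tested none passed without the block, and with it Tomm40 and Tomm7 were called higher and Tomm70a lower. Tomm70a (chromosome 16, 57121714 to 57154530), a receptor for carrier precursors, had 65.5, 56.5 and 31.1 CPM on polyribosomes and 89.4, 84.7 and 44.1 CPM in total RNA, in the order of replicates 1 to 3. Each preparation was lower on polyribosomes while the groups overlapped, and preparation 3 was low in both. Tomm70a differed by -0.55 on the log2 scale (standard error 0.27, adjusted p = 0.166), and with the block by -0.51 (standard error 0.13, adjusted p = 9.6e-04, both from edgeR). Corrected for GC content and length, that value was -0.07. Tomm40 (chromosome 7, 19701313 to 19715438), the channel of the complex, had 31.5, 37.4 and 45.3 CPM on polyribosomes and 19.9, 24.1 and 34.5 CPM in total RNA. Here preparation 3 was high in both and the groups overlapped, but each preparation was higher on polyribosomes. Tomm40 differed by 0.62 on that scale (standard error 0.22, adjusted p = 0.0699), and with the block by 0.58 (adjusted p = 0.00147, both from edgeR). With GC content and length corrected for it was 0.06 and did not pass, and nor did Tomm70a (adjusted p = 0.813 and 0.707, edgeR). Exons of Tomm40 overlap those of Gm20512 on the other strand, and the use of strand in the counting is not given in the sources used here.

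Tomm7, a small subunit that tunes the stability of the complex, lies on chromosome 5 from 23838944 to 23844161. It had 36.4, 40.2 and 40.6 CPM on polyribosomes and 24.3, 33.8 and 22.1 CPM in total RNA. All polyribosome libraries lay above all total RNA libraries. Tomm7 differed by 0.51 on the log2 scale (standard error 0.19, adjusted p = 0.0809), and with the block by 0.50 (adjusted p = 0.00568, both from edgeR). With GC content and length corrected for, the blocked value was 0.55 and still past the threshold.

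Tomm20 (chromosome 8, 126930664 to 126945921), the presequence receptor, had the most counts of all members. Its levels were 232, 276 and 201 CPM on polyribosomes and 285, 301 and 232 CPM in total RNA. The groups overlapped although each preparation was lower on polyribosomes, and the log2 fold change of -0.21 did not pass (adjusted p = 0.445 without and 0.181 with the block, edgeR). The gene has processed pseudogenes with over 97% identity, so its count is uncertain. Tomm22, Tomm34, Tomm5 and Tomm40l had log2 fold changes between -0.17 and 0.12 and did not pass in either fit. Tomm20l and Tomm6 had 0 counts in every library, which allows up to 0.406 to 2.88 CPM, the level of 3 counts in a library. The exons of Tomm6 overlap those of Gm21981 on the same strand, which was at 0 counts as well, so the value of Tomm6 does not show a lack of its mRNA.

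**Figure D3:**
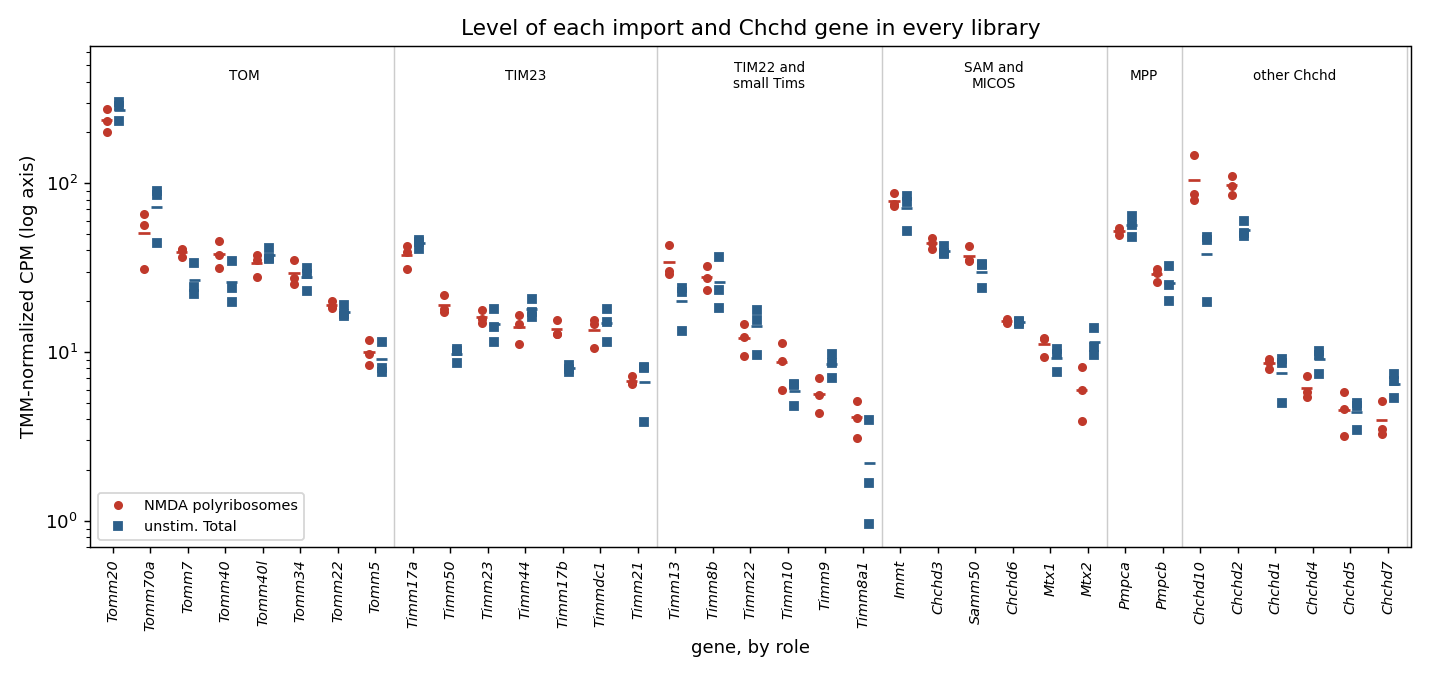
TMM-normalized CPM (log axis) of the 35 members tested in each library, grouped by role, with red circles for the 3 NMDA polyribosome libraries, blue squares for the 3 unstim. Total libraries and lines for the means. Tomm20 lies highest with means of 236 and 273 CPM, and the separation between the groups is widest for Chchd10, with means of 104 and 37.9 CPM.

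In the TIM23 group 2 of 7 genes were called higher with the block and none without it. Timm50 (chromosome 7, 28305516 to 28312072), the receptor that faces the intermembrane space, had 18.0, 17.2 and 21.8 CPM on polyribosomes and 10.2, 10.4 and 8.63 CPM in total RNA. The groups were well apart, and the libraries within each lay close together. Timm50 differed by 0.92 on the log2 scale (standard error 0.21, adjusted p = 0.0133), and with the block by 0.87 (standard error 0.20, adjusted p = 2.1e-04, both from edgeR). Corrected for GC content and length it was 0.44 (adjusted p = 0.0853, edgeR).

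Timm17b and Timm17a are paralogous core subunits that are used in alternative forms of the complex. Timm17b (chromosome X, 7899357 to 7908351) had 12.9, 12.8 and 15.4 CPM on polyribosomes and 7.95, 8.37 and 7.67 CPM in total RNA. Timm17a (chromosome 1, 135295213 to 135313778), the one with the most counts of the group, had 39.4, 42.5 and 31.1 CPM on polyribosomes and 46.2, 40.9 and 45.1 CPM in total RNA. Timm17b did not overlap between the groups and Timm17a did. Timm17b had a log2 fold change of 0.75 (adjusted p = 0.0347 without and 0.00608 with the block, edgeR), and Timm17a one of -0.22 (adjusted p = 0.425 and 0.305, edgeR). Exons of Timm17b overlap those of Gm10491 on the other strand, which had 0 counts. Per kilobase of exon, Timm17b reached 5.75 CPM and Timm17a 5.17 CPM on polyribosomes, against 3.36 and 6.05 in total RNA.

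Timm44, which ties the matrix chaperone Hspa9 to the channel, had 14.6, 11.1 and 16.5 CPM on polyribosomes and 20.6, 16.1 and 17.3 CPM in total RNA. The groups overlapped, but each preparation was lower on polyribosomes. Its log2 fold change was -0.38 (adjusted p = 0.230, and 0.0591 with the block, edgeR), and it passed only with the block and the correction for GC content and length (-0.59, adjusted p = 0.00746, edgeR). Timm23, the membrane core that Timm17 partners, was at 0.10, Timm21 at -0.13 and Timmdc1, an assembly factor of complex I, at -0.18. Reads of Timm23 may be shared with 4 near-identical copies, among them Gm10273, which had 0 counts.

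Of the 6 genes tested in the group of TIM22 and the small Tim chaperones, 0 passed without the block and 1 with it, over log2 fold changes from -0.61 to 0.82. Timm13 (chromosome 10, 80899450 to 80900969), which works with Timm8 proteins, had 28.8, 30.1 and 42.8 CPM on polyribosomes and 13.4, 22.8 and 24.0 CPM in total RNA. All polyribosome libraries were above all total RNA libraries. Timm13 differed by 0.82 on the log2 scale (standard error 0.24, adjusted p = 0.0369), and with the block by 0.77 (adjusted p = 9.8e-05, both from edgeR). It was 0.31 with GC content and length corrected for and no longer past the threshold. Exons of Timm13 overlap those of Tmprss9 on the other strand, which had at most 3 counts a library. Timm9, which forms a hexamer with Timm10, had 5.55, 4.37 and 7.0 CPM on polyribosomes and 9.68, 7.03 and 8.63 CPM in total RNA. The polyribosome libraries were just below all total RNA libraries. Its log2 fold change was -0.61 (adjusted p = 0.139 without and 0.0329 with the block, edgeR).

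Timm10, Timm8a1, Timm8b and Timm22, the channel of the carrier pathway, had log2 fold changes of 0.48, 0.59, 0.02 and -0.31 and did not pass in either fit. Timm8a1 rested on 1 to 27 counts a library, and its near-identical copy, Gm9797, had at most 3 counts. Timm10b, another small Tim, had 14, 12 and 7 counts on polyribosomes and 18, 14 and 1 in total RNA and was too low to be tested. Timm8a2 had 0 counts in every library.

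In the SAM and MICOS group Mtx2 stood apart from the others. Mtx2 (chromosome 2, 74825803 to 74878431), a metaxin of the sorting machinery, had 5.95, 8.13 and 3.91 CPM on polyribosomes and 13.9, 10.7 and 9.59 CPM in total RNA. Every polyribosome library was below every total RNA library. Mtx2 differed by -0.96 on the log2 scale (standard error 0.28, adjusted p = 0.0347), and with the block by -0.90 (standard error 0.23, adjusted p = 0.00103, both from edgeR). Corrected for GC content and length the blocked value was -0.67 (adjusted p = 0.0197, edgeR). It rested on 19 to 56 counts in 5 of the libraries and on 10 counts in total RNA replicate 3.

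Samm50, the β-barrel core of SAM, had 35.04, 34.5 and 42.4 CPM on polyribosomes and 33.0, 32.8 and 24.0 CPM in total RNA. The groups did not overlap, but in preparations 1 and 2 they were close, and the log2 fold change of 0.27 did not pass (adjusted p = 0.336 without and 0.241 with the block, edgeR). Immt, the organizer of the cristae junctions, had 73.7, 75.8 and 87.1 CPM on polyribosomes and 83.7, 77.4 and 51.8 CPM in total RNA. Only preparation 3 was higher on polyribosomes, the groups overlapped, and the log2 fold change was 0.12 (adjusted p = 0.706 without and 0.628 with the block, edgeR). The MICOS subunits Chchd3 and Chchd6 were at 0.17 and 0.02, and Mtx1 at 0.20, none past the threshold in either fit.

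Both subunits of the processing peptidase kept close to 0. Pmpca, the substrate-binding subunit, had 54.7, 52.3 and 49.2 CPM on polyribosomes and 63.8, 56.9 and 47.9 CPM in total RNA, with overlapping groups. Log2 fold changes were -0.13 for Pmpca and 0.12 for Pmpcb, the catalytic subunit (adjusted p = 0.622 and 0.728, edgeR). Exons of Pmpca overlap those of Inpp5e on the other strand.

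The widest spread of any role was found in the remaining Chchd genes, from -0.70 to 1.51. Chchd10 (chromosome 10, 75935573 to 75937725) had 86.3, 79.7 and 147 CPM on polyribosomes and 19.9, 47.9 and 46.0 CPM in total RNA. The lowest polyribosome library was far above the highest total RNA library, polyribosome replicate 3 was the highest and total RNA replicate 1 the lowest. Chchd10 differed by 1.51 on the log2 scale (standard error 0.30, adjusted p = 0.00784), and with the block by 1.46 (standard error 0.15, adjusted p = 7.7e-15, both from edgeR). In the 3 preparations the log2 ratio was 2.09, 0.73 and 1.66. The gene lies in a region shared with Mmp11 on the other strand, which had only 13, 12 and 13 counts on polyribosomes and 1, 4 and 2 in total RNA.

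Without the block, Chchd10 passed in 1 of the 6 fits that left out 1 library. Of all genes, these fits called fewer higher than the 87 called with all libraries. The number was 48, 11 or 42 without polyribosome replicate 1, 2 or 3, and 2, 0 or 61 without total RNA replicate 1, 2 or 3. Chchd10 passed without polyribosome replicate 1 (1.63, adjusted p = 0.00978, edgeR). It missed the threshold without polyribosome replicate 2 (1.67) or 3 (1.21) and without total RNA replicate 1 (1.13), 2 (1.81) or 3 (1.64), where the adjusted p in edgeR lay between 0.0113 and 0.0399.

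Chchd2 (chromosome 5, 129881156 to 129887470), the paralog of Chchd10, had 96.4, 84.7 and 110 CPM on polyribosomes and 50.7, 59.9 and 48.9 CPM in total RNA. The groups were clearly apart and libraries of a group lay close together. Chchd2 differed by 0.86 on the log2 scale (standard error 0.17, adjusted p = 0.00794), and with the block by 0.83 (standard error 0.13, adjusted p = 2.1e-07, both from edgeR). Per kilobase of exon it was the highest of all members, with 106 CPM on polyribosomes and 58.1 in total RNA, followed on polyribosomes by Chchd10 with 70.1, Timm8b with 53.5 and Tomm20 with 48.1. Leaving out polyribosome replicates 1, 2 or 3 gave 0.86, 0.95 and 0.76, and leaving out total RNA replicates 1, 2 or 3 gave 0.80, 0.96 and 0.81. In none of these 6 fits did Chchd2 pass an adjusted p of 0.01 (0.0114 to 0.0561, edgeR). They are the fits with fewer calls over all genes that are given for Chchd10. Chchd2 has 3 near-identical copies, and Zbed5, the one of them in the table with a protein-coding label, had 1 to 11 counts a library. The region of Chchd2 overlaps that of Phkg1 on the same strand, without shared exon positions. Phkg1 had 257, 221 and 251 counts on polyribosomes and 110, 83 and 37 in total RNA.

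Chchd7 and Chchd4 lay on the other side. Chchd7, related to a yeast assembly factor of cytochrome oxidase, had 3.52, 5.12 and 3.29 CPM on polyribosomes and 7.45, 5.36 and 6.71 CPM in total RNA. The groups did not overlap, and the distance was smallest in preparation 2. Its log2 fold change was -0.70 (adjusted p = 0.123 without and 0.0583 with the block, edgeR), and it passed with the block and the correction for GC content and length (-1.09, adjusted p = 0.00257, edgeR). Chchd4, the oxidoreductase that traps Chchd proteins in the intermembrane space, was at -0.55 (adjusted p = 0.153 without and 0.0709 with the block, edgeR). Chchd1, a subunit of the mitochondrial ribosome, and Chchd5 were at 0.27 and 0.06.

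**Figure D4:**
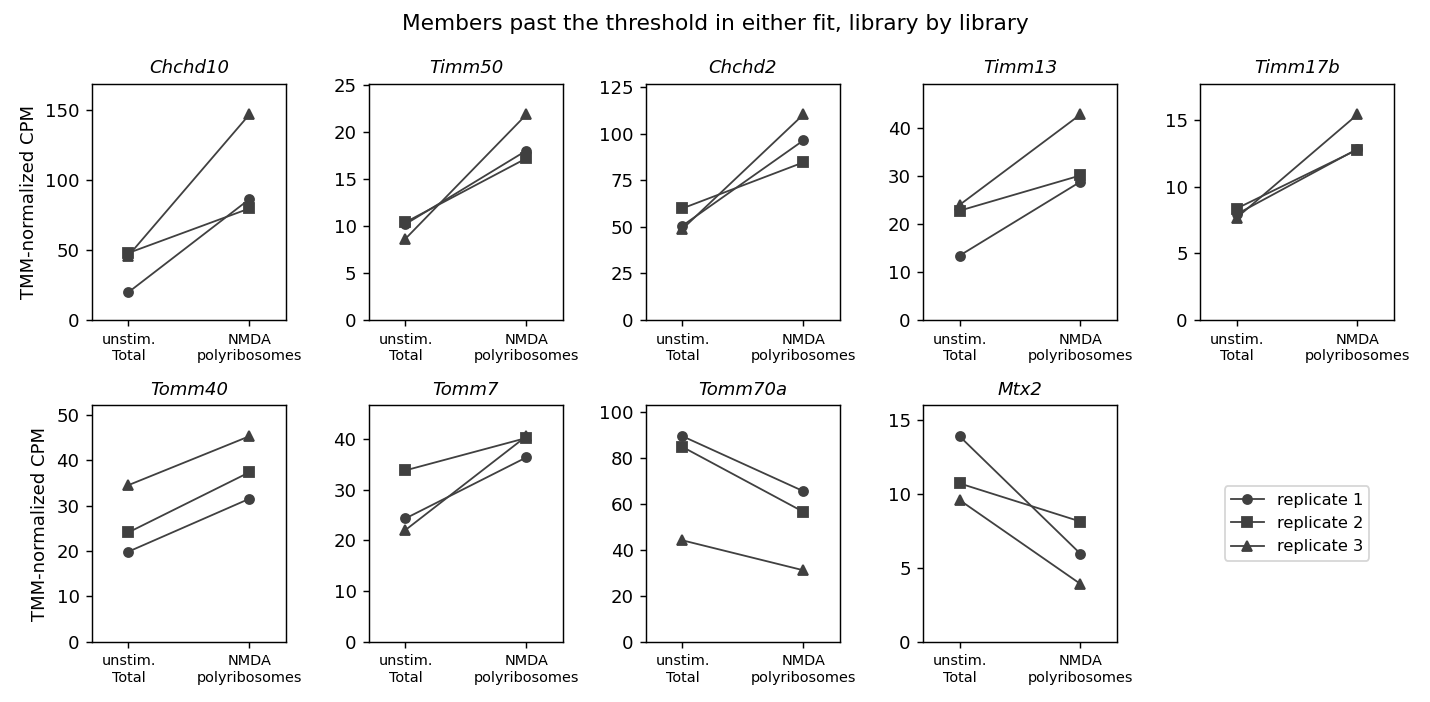
TMM-normalized CPM of the 9 members past the threshold in the fit with or without the replicate block, a panel each with its own axis from 0, with lines joining the total RNA and the polyribosome library of a preparation. All lines rise for Chchd10, Timm50, Chchd2, Timm13, Timm17b, Tomm40 and Tomm7 and fall for Tomm70a and Mtx2, and in Tomm40 and Tomm70a preparation 3 lies apart from the others in both fractions.

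Ratios within a library do not depend on how libraries are scaled, so 11 pairs of paralogs or partner subunits were compared by their log2 count ratio. The groups did not overlap for 4 of them. Each of the 4 holds a member named above as not overlapping (Timm17b, Timm50, Mtx2 or Timm9), so the ratios are not separate support. No share over other pairs of genes was computed. Timm17b over Timm17a went from -2.42 ± 0.14 in total RNA to -1.45 ± 0.39 on polyribosomes (SD, n = 3 each), and Timm50 over its partner Timm23 from -0.55 ± 0.21 to 0.23 ± 0.29. Mtx2 over Mtx1 went from 0.29 ± 0.14 in total RNA to -0.94 ± 0.70 on polyribosomes, and Timm9 over Timm10 from 0.50 ± 0.33 to -0.60 ± 0.46. In each of these 4 pairs the gene favored on polyribosomes had the higher GC content. It was 51.6% and 43.2% in Timm17b and Timm17a, and 58.3% and 49.1% in Timm50 and Timm23. In Mtx1 and Mtx2 it was 61.7% and 43.7%, and in Timm10 and Timm9 52.5% and 43.4%. Of the pairs whose groups overlapped, Tomm40 with Tomm40l, Chchd10 with Chchd2 and Tomm70a with Tomm20 went the same way. Timm8a1 with Timm8b, Timm8a1 with Timm13, Pmpcb with Pmpca and Chchd6 with Chchd3 went the other way. The ratios were not corrected for GC content or length, and the part of these was not tested. The p of the 4 pairs that did not overlap was 0.1 (two-sided exact permutation test), the smallest that 3 against 3 libraries allow. After adjustment of that test over the 11 pairs it was 0.275, so none could pass. Tomm40 over Tomm40l was higher in each preparation by 0.61, 0.86 and 0.73 with overlapping groups, and Chchd10 over Chchd2 by 1.18, 0.24 and 0.50.

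Further genes of the pathway were compared from a list of 22 other import genes and a list of 9 other genes of CX9C proteins, the class with the cysteine motif of Chchd. Of the import genes 21 were tested, and 0 were called in either direction without the block, while 4 (19%) were higher and 1 (4.76%) lower at an unadjusted p under 0.05, against 15.4% and 17.1% of all genes. DESeq2 also called 0 of them. With the block, Hspa9, the matrix chaperone that pulls precursors in, was called higher at 0.45, Pam16, a cochaperone of its motor, at 0.79 and Romo1 at 0.79, and Mtx3, a metaxin, was called lower at -0.66. Without preparation 2 the last 3 missed the threshold, and Hspa9 missed it without any of the preparations. Corrected for GC content and length in that fit, Hspa9 (0.60) and Dnajc15 (0.83) were called higher, the second named after its value was seen. Of the 9 CX9C genes 7 were tested, and 1 of them (14.3%) had a positive log2 fold change, against 50.1% of all genes. Their median was -0.33. Without the block 0 were called higher and 1 (14.3%) lower, against 0.71% and 2.36% of all genes. Cox17, the copper chaperone of cytochrome oxidase, had 5, 6 and 3 counts on polyribosomes and 20, 10 and 4 in total RNA and a log2 fold change of -2.45 (adjusted p = 0.00345, edgeR). It missed the threshold without polyribosome replicate 1 (-2.37) or 2 (-2.62) and without total RNA replicate 1 (-2.21) or 2 (-2.61). Its first exons overlap those of Gm21987 on the same strand, which had 0 counts, so its count is uncertain. Coa6 was at 0.91 (adjusted p = 0.0585, edgeR).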

How the data were processed

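RNA of synaptoneurosomes was sequenced from 6 libraries, 3 of NMDA polyribosomes and 3 of unstim. Total. The authors depleted ribosomal RNA, made strand-specific libraries, mapped reads to GRCm38 (mm10) with STAR (2.5.2b in the submitters' processing notes), used the basic set of Gencode vM6 for counting, and deposited unnormalized whole-number counts of 21958 protein-coding genes. The authors' own DESeq2 comparison in the same deposited table (mean normalized signal, log2 fold change and its error, Wald score, p-value and adjusted p-value) was not used.

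Counts were tested with edgeR 4.0.16 in R 4.3.3 (filterByExpr, TMM, quasi-likelihood test, group as the only term, for the comparison of these groups that the study's methods name) and adjusted by the Benjamini-Hochberg method over 12255 genes, with a threshold of 0.01. The standard error is the log2 fold change divided by the root of the F statistic. Log2 ratios of single preparations used 0.5 CPM and count ratios 0.5 counts as pseudocount. The alternatives were DESeq2 1.42.0, other scalings, filters and thresholds, the replicate number as a block, a correction for GC content and transcript length (spline with 4 degrees of freedom, Gencode vM21, 99.6% of genes), and leaving out each library. The blocked fits without each preparation, and the ratios between members, were added after the data were seen.

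The methods divide each preparation into aliquots, and deviations of same-numbered libraries from their group means correlated across genes (0.37, 0.26 and 0.38), so numbers were taken as pairs. Replicates differed by more than sampling noise (chi-square per degree of freedom of 3.50 to 21.4). On simulated counts of 12255 genes the test recovered 98.5% of 200 genes changed by 1.5 on the log2 scale and called 3 of 12055 unchanged ones. The 200 genes were drawn from the better covered ones, and no difference between preparations was simulated. Of the members only Chchd10 differed by as much, so the share does not apply to smaller differences or weakly expressed members. Of the tested members, 11 share exon positions with another gene and 4 have near-identical copies (at least 97% identity over 250 bases), and their counts are uncertain.

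All members may be named. Levels in every library are given for members past the threshold with or without the block, and for the most abundant and, with at least 4 members tested, the largest and smallest difference of each role. Further import genes are named past the threshold in either fit or as the largest or smallest of their list. The members, lists and pairs were chosen with earlier results of these data known. Limits from a count of 0 cover counting error only.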

Additional observations from a re-analysis of the deposited data

How the results depend on the processing

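The 2 members called higher and 0 lower became 5 and 1 at an adjusted p under 0.05, 1 higher with library totals only, 4 higher with all genes of at least 1 count, 7 and 2 with the replicate block, 2 lower beside 3 higher with the block and the GC and length offset, and 0 higher with that offset alone. Leaving out 1 library gave 0 to 1 higher and 0 lower, and leaving out 1 pair from the blocked fit gave 3 to 5 higher and 0 to 3 lower. Calls over all genes moved too, from 87 higher and 289 lower to 42 and 366 with library totals only and 28 and 89 with the offset alone. With all genes of at least 1 count they were 476 and 566 of 16736. The block gave 1441 and 1622, and the block with the offset 1096 and 874. Without 1 library they were 0 to 61 and 22 to 208. Without 1 pair they were 518 to 1470 and 682 to 1602. The further import genes called, 0 higher and 1 lower, became 2 and 2 at an adjusted p under 0.05, 3 and 2 with the block, 2 higher with the block and the offset, and 1 higher with all genes of at least 1 count. They were 0 to 1 lower without 1 library, and 0 to 2 higher and 1 to 2 lower without 1 pair in the blocked fit. DESeq2 gave Cox17 no adjusted p, so its count of lower genes was not compared. The median of the members stayed between -0.02 and 0.15 and the number of positive members between 16 and 22 over all alternatives. Apart from the calls named here and in the report, the block changed no call.

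Genes near 0 changed sign. With the GC and length offset alone Chchd5 was at -0.24, Chchd6 at -0.45, Mtx1 at -0.38, Timm17a at 0.18, Timm21 at 0.16, Timm23 at -0.025, Timm8b at -0.22, Tomm20 at 0.060, Tomm34 at -0.17 and Tomm5 at -0.038. With the block and the offset these were -0.29, -0.43, -0.36, 0.19, 0.14, 0.014, -0.15, 0.058, -0.19 and -0.080. With the block alone Chchd5 was at -0.0088. With library totals only Chchd5 was at -0.057, Chchd6 at -0.090, Timm23 at -0.010, Timm8b at -0.092, Tomm34 at -0.0083 and Tomm5 at -0.057. Without 1 library, Chchd1 ranged from -0.063 to 0.53, Chchd5 from -0.17 to 0.26, Chchd6 from -0.0096 to 0.036, Immt from -0.034 to 0.24, Timm8b from -0.12 to 0.36, Tomm34 from -0.055 to 0.20 and Tomm5 from -0.066 to 0.31. Without pair 1 in the blocked fit, Chchd1 was at -0.11, Chchd5 at -0.33, Chchd6 at -0.0040, Pmpcb at -0.0050, Timm23 at -0.048 and Tomm34 at -9.1e-05. Without pair 2, Timm21 was at 0.019 and Timm8b at -0.0069. Without pair 3, Chchd5 was at -0.084, Immt at -0.12, Pmpcb at -0.031, Timm8b at -0.020 and Tomm5 at -0.12. None of these genes passed the threshold in any of these fits. The causes were not tested.

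Total RNA replicate 3, with 1044955 counts, limits the weakly expressed members most: 3 counts there are 2.88 CPM.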
